A study of Mus musculus with 4 samples.

Results

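The nuclear-encoded genes of the mitochondrial respiratory chain were followed in single immune cells of mouse mammary tumours. They were taken by symbol: every gene whose name begins with Nduf (complex I), Sdha, Sdhb, Sdhc or Sdhd (complex II), Uqcr (complex III) or Atp5 (complex V), and the Cox4 to Cox8 families (complex IV). This gave 97 of the 31053 genes in the deposited matrices, with 46 in complex I, 8 in complex II, 8 in complex III, 18 in complex IV and 17 in complex V. The rule takes in 12 assembly factors, 8 named Ndufaf and 4 named Sdhaf, which help to build a complex without staying in it. Atp5o stands for 2 gene identifiers, so the 97 genes have 96 symbols.

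The respiratory chain passes electrons through its complexes in the inner mitochondrial membrane and pumps protons as it does so, and complex V, the ATP synthase, makes ATP from the proton gradient. Complex I oxidises NADH, complex II (succinate dehydrogenase) also serves the TCA cycle, complex III reduces cytochrome c and complex IV reduces oxygen. Complexes I, III, IV and V join nuclear-encoded subunits with subunits encoded by mitochondrial DNA (mtDNA), while complex II is nuclear-encoded throughout. Resting lymphocytes are known for a modest respiratory activity that grows on activation, and mature neutrophils for few mitochondria and a reliance on glycolysis.

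The tumours came from FVB/NJ mice 12 weeks old. The group Jagged1/PyMT carries Jagged1, a ligand of Notch receptors, together with PyMT, the polyomavirus middle T oncogene; the group PyMT carries the oncogene alone, so all animals share it. The labels list 2 samples in each group, and the promoter or cell type that drives either transgene is not given in the sources used here. Immune cells were sorted by FACS from the digested tumours, and 8000 were loaded on a 10x Genomics 3′ kit.

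Both samples of a genotype share 1 matrix, so each genotype was 1 library, and a difference between genotypes cannot be told apart from a difference between 2 libraries. There are no replicates, no spread between animals and no p-values here; intervals are 95% exact Poisson (for a level) or conditional binomial (for a ratio) and cover counting error only. The Jagged1/PyMT library had 55506773 UMIs and 7875 called cells with a median of 4200 UMIs, and the PyMT library 36012036 UMIs and 7444 cells with a median of 3841. Jag1 itself stood at 16.8 CPM (UMIs of a gene per 1000000 UMIs) in the called cells of Jagged1/PyMT, against 1.96 CPM in PyMT, and 70 cell barcodes were called in both libraries. Cells were put into classes by marker genes, with at least 3 UMIs of the class's own markers and few of the other main lineages. They are called "-like" for that reason. Monocyte-like and conventional dendritic cell-like cells could also hold macrophage markers. A UMI counts 1 captured 3′ end, so levels of different genes compare transcript molecules without a division by length.

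Of the 97 genes, 94 had a UMI in called cells and 91 had at least 100. Together they had 1031709 UMIs in Jagged1/PyMT, or 19544 CPM, and 570073 UMIs in PyMT, or 16669 CPM. The load was spread widely: the top gene held 4.4% of all member UMIs, the top 10 held 31.9% and the top 20 held 52.1%. Complex V was led by Atp5e (70416 UMIs over both libraries), the epsilon subunit of the central stalk, and by Atp5g3 (46725) and Atp5g2 (45568), which encode the same c-subunit of the membrane ring. Complex IV was led by Cox4i1 (68774), Cox8a (65819) and Cox7c (48648), nuclear subunits around the mtDNA-encoded core. Complex III was led by Uqcrh (46786), the hinge protein, Uqcrq (22523) and Uqcr10 (19691). In complex I the leading genes were Ndufa6 (31693), Ndufa4 (29709) and Ndufa2 (25224); Ndufa4 keeps its complex I name although later work places the protein in complex IV. Complex II was lowest, with the iron-sulphur subunit Sdhb (15565), its assembly factor Sdhaf1 (6666) and the flavoprotein Sdha (6563) in front.

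The members lie on 19 chromosomes (GENCODE vM21, GRCm38), at most 10 on 1 chromosome, and none on the mitochondrial genome. Of the 97, 36 overlap a gene on the opposite strand and 13 one on the same strand, and whether counting used strand is not given in the sources used here. For 13 members the last 300 bases have a near-identical copy elsewhere in the annotated transcripts, at 95% identity or more over at least 150 bases. Among these are Uqcrb, Cox7c, Cox6a1, Atp5h, Atp5l, Atp5k and Ndufs3. Whether reads shared with a copy were kept or dropped was not tested, and their levels are uncertain to that extent. For only 1 of the 13 was the copy itself a counted gene. The second Atp5o identifier, which had 0 UMIs, shares its end with transcripts of Donson.

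Nuclear respiratory genes are textbook targets of the transcription factors NRF1, GABP (an ETS factor) and YY1. RefSeq promoter windows (GRCm38.p6, 250 bases before to 50 after the start) were matched for 80 member symbols. An NRF1 motif, the palindrome of GCGCA followed by TGCGC, stood in 7 of the 80 (8.75%) against 1.07% of all 27025 genes with a window. An ETS motif, CCGGAAGT, stood in 5 (6.25%) against 4.31%, and a YY1 motif, AAGATGGCG, in 8 (10.0%) against 1.64%. Both strands were searched, no member held more than 1 kind, and 20 members (25%) held at least 1 of the motifs against 6.76% of all genes. The 85 windows of members (some genes have more than 1) had a median of 20 CpG against 7 in all windows. A match describes letters and says nothing of binding. The 5 windows below show these motifs in genes whose levels are described next; each is on the minus strand, given 5′ to 3′ along the gene, with motif matches in capitals. Cox6a1 and Atp5g2 hold the NRF1 motif, Cox8a holds the ETS motif in reverse complement at 2 places, Ndufs6 holds the YY1 motif after its start, and Sdhaf1 holds none of the 3.
Cox6a1, chr5:115348909-115349208: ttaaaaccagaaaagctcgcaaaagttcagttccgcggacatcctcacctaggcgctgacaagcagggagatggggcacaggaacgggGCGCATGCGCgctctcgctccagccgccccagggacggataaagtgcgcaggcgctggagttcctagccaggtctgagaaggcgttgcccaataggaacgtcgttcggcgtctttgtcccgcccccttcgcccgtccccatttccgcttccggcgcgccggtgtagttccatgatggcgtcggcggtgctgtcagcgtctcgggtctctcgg
Atp5g2, chr15:102670998-102671297: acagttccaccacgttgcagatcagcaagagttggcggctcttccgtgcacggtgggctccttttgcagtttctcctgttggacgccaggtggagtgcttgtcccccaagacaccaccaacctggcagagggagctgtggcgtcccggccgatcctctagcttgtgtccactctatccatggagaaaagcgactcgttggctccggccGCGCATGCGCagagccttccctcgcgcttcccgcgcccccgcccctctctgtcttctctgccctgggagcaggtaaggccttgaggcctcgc
Cox8a, chr19:7217567-7217866: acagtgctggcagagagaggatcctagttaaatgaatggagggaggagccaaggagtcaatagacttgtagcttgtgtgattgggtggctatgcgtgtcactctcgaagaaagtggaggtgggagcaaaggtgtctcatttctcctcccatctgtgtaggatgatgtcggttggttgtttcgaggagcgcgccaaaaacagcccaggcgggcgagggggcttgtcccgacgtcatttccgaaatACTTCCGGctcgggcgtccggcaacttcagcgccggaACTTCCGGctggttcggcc
Ndufs6, chr13:73328433-73328732: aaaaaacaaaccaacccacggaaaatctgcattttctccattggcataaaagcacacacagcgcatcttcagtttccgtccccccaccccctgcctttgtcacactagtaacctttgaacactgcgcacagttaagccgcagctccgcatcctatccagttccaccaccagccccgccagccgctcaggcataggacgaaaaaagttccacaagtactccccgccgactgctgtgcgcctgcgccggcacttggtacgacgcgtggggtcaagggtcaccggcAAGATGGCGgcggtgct
Sdhaf1, chr7:30322326-30322625: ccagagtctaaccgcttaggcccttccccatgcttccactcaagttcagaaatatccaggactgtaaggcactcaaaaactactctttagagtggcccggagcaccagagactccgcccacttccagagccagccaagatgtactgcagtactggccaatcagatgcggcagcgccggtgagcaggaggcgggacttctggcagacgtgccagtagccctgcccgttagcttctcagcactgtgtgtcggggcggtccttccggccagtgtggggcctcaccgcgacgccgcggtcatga

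The first comparison asked how much of its RNA each cell class spends on the respiratory chain. The summed level of the 97 genes was highest in the few epithelial-like cells that passed the immune sort, 26130 CPM in Jagged1/PyMT (56 cells) and 25481 CPM in PyMT (103 cells). It was lowest in neutrophil-like cells, 11662 CPM (279 cells) and 10731 CPM (96 cells). Macrophage-like cells had 21392 CPM in Jagged1/PyMT (2016 cells) and 17978 CPM in PyMT (185 cells), and monocyte-like cells 21907 CPM (115 cells) and 21918 CPM (42 cells). T cell-like cells had 18034 CPM (2543 cells) and 16243 CPM (4913 cells), and B cell-like cells 15622 CPM (1273 cells) and 15203 CPM (1389 cells). Both libraries thus put epithelial-like cells first and B cell-like and neutrophil-like cells last. Between these lay mature dendritic cell-like cells (18117 and 18813 CPM), NK cell-like cells (22500 and 19732 CPM), and conventional (20685 and 19147 CPM) and plasmacytoid (20471 and 19806 CPM) dendritic cell-like cells, the last 3 classes with 13 to 37 cells per library. In this middle range neighbours such as NK cell-like and monocyte-like cells of Jagged1/PyMT, or the conventional and plasmacytoid dendritic classes in either library, had overlapping intervals. Free RNA, read from barcodes under 100 UMIs, had 16480 CPM in Jagged1/PyMT and 15163 CPM in PyMT, so neutrophil-like cells lay below it in both libraries, B cell-like cells lay below it in Jagged1/PyMT (15622 CPM) and had about the same level in PyMT (15203 CPM).

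**Figure D1:**
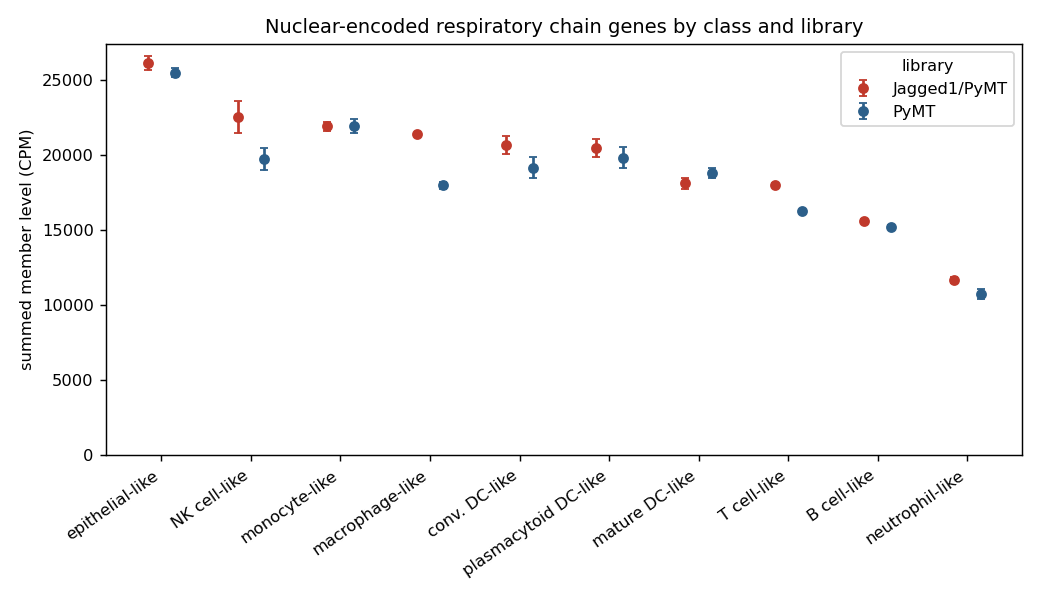
Summed level of the 97 genes (CPM, vertical axis from 0) in each marker-gated class, Jagged1/PyMT left of PyMT, with 95% Poisson intervals. Epithelial-like cells are highest (26130 and 25481 CPM) and neutrophil-like cells lowest (11662 and 10731 CPM) in both libraries.

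The summed level of macrophage-like over T cell-like cells was 1.19-fold in Jagged1/PyMT (1.18 to 1.19) and 1.11-fold in PyMT (1.09 to 1.12), and this direction rests on the scale. Ribosomal-protein genes took 16.8% and 14.7% of macrophage-like UMIs but 38.3% and 38.7% of T cell-like UMIs. With ribosomal-protein and mitochondrial UMIs left out of the total, the macrophage over T log2 ratio was -0.20 in Jagged1/PyMT and -0.35 in PyMT, in place of 0.25 and 0.15. B cell-like cells were lower than T cell-like cells on either scale, 0.866-fold in Jagged1/PyMT and 0.936-fold in PyMT on all UMIs. Complex II, counted with its assembly factors, was the exception. It had 603 CPM in B cell-like against 433 CPM in T cell-like cells of Jagged1/PyMT and 525 against 409 CPM in PyMT. The assembly factor Sdhaf1 alone stood at 223 against 73.9 CPM and 179.8 against 76.2 CPM. In PyMT the subunits went both ways: Sdha had 77.5 against 75.1 CPM, Sdhb 156 against 142 CPM, Sdhc 25.6 against 35.4 CPM and Sdhd 38.4 against 38.5 CPM. Neutrophil-like over T cell-like cells gave log2 ratios of -0.63 and -0.60, and -1.26 in each library with ribosomal-protein and mitochondrial UMIs left out.

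The members did not move as 1 block between classes. For each class every gene was set against all other gated classes of the same library. It was counted when it was over 1.5-fold away in the same direction in both libraries. Of the members, 88 had at least 100 UMIs in each. UMIs of the other classes were summed, and their mix differed between libraries. Macrophage-like cells held 20530753 UMIs in Jagged1/PyMT and 1190137 in PyMT, and T cell-like cells 11157633 and 21263461. A ratio over the other classes therefore has a different reference in each library. Epithelial-like cells had 24 members higher, beside 16.8% of all genes, and 1 lower, beside 18.7%. Neutrophil-like cells had 0 higher (10.4% of all genes) and 45 lower (35.4%), with a median member log2 ratio of -0.87 in Jagged1/PyMT and -0.61 in PyMT beside -0.74 and -0.40 over all genes. T cell-like cells had 1 member higher (9.91%) and 6 lower (24.4%), and B cell-like cells 2 higher (12.1%) and 3 lower (18.3%). In lymphocytes, then, few members were set apart in both libraries.

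Macrophage-like cells had 13 members higher (19.4% of all genes) and 4 lower (22.7%), in each direction a smaller share of the 88 members than of all genes. Ndufc2, a membrane-arm subunit of complex I, had 285 CPM in macrophage-like cells of Jagged1/PyMT and 223 CPM in those of PyMT, log2 ratios of 1.48 and 1.37 over the other classes. Uqcr11, a small subunit of complex III, had 269 and 233 CPM, a log2 ratio of 1.11 in each library. Sdhd, a membrane anchor of complex II, had 74.9 and 99.1 CPM, beside 43.3 and 41.7 CPM in the other classes together. Sdhb and Sdhc, further subunits of complex II, were among the 13 as well, so 3 of its 4 subunits were. These calls rest on all UMIs, and calls with ribosomal-protein and mitochondrial UMIs left out are not given here. The 4 lower genes were Sdhaf1, Cox7a2l, Uqcrh and Cox6a2. Monocyte-like cells had 1 gene higher, again Sdhd (10.6%), and 1 lower, Ndufaf4 (15.8%); their Sdhb, at 290.3 and 255 CPM, was the highest of any class in each library.

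Sdhaf1, which helps to insert the iron-sulphur clusters of Sdhb, was unevenly spread. It had 276 CPM in mature dendritic cell-like cells of Jagged1/PyMT and 250.4 CPM in those of PyMT, and 223 and 179.8 CPM in B cell-like cells. It had 73.9 and 76.2 CPM in T cell-like cells, 30.3 and 26.9 CPM in macrophage-like cells and 28.1 and 27.9 CPM in epithelial-like cells. The log2 ratio over the other classes was 2.1 and 1.49 in mature dendritic cell-like, 2.20 and 1.26 in B cell-like and -1.81 and -1.82 in macrophage-like cells. Its client did not follow: Sdhb had 73.0 and 77.3 CPM in mature dendritic cell-like cells, its lowest class in each library, and 163 and 156 CPM in B cell-like cells. Sdhaf1 (chr7:30321406-30323895, minus strand) overlaps E130208F15Rik on the opposite strand. Sdhaf3, another assembly factor of complex II, was the second gene past 1.5-fold in B cell-like cells, at 12.8 and 7.65 CPM.

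Cox7a2l, known for joining complexes III and IV into supercomplexes, was the 1 member over 1.5-fold higher in T cell-like cells. It had 284 CPM in those of Jagged1/PyMT and 359 CPM in those of PyMT, log2 ratios of 0.83 and 0.86, beside 149 and 156 CPM in macrophage-like cells. Mature dendritic cell-like cells had 339 and 357 CPM, so the gene was not particular to T cells. Uqcrh came next in T cell-like cells with 639.8 and 678 CPM, log2 ratios of 0.65 and 0.39. Apart from Cox6a2, their lowest genes were Uqcr11, with 117 and 88.8 CPM and log2 ratios of -0.98 and -0.94, and Cox5a, a matrix-side subunit of complex IV, with 310.5 and 238 CPM and log2 ratios of -0.81 and -0.69.

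Mature dendritic cell-like cells (66 from the Jagged1/PyMT library, 63 from that of PyMT) had 4 members higher (10.9% of all genes) and 12 lower (29.9%), in each direction a smaller share of the 88 members than of all genes. Ndufa6, an accessory subunit of complex I, had 629 and 662 CPM there (log2 ratios of 0.85 and 0.84), and Atp5l, the g subunit of ATP synthase, 781 and 716 CPM (0.68 and 0.76); Sdhaf1 and Cox5a were the other 2. The complex I assembly factor Ndufaf4 was lowest: it had 1 UMI in Jagged1/PyMT and 3 in PyMT, or 1.97 and 4.64 CPM, beside 38.1 and 33.2 CPM in T cell-like cells. Atp5a1, the catalytic-head alpha subunit, and the c-subunit genes Atp5g1 and Atp5g3 were also among the 12.

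**Figure D2:**
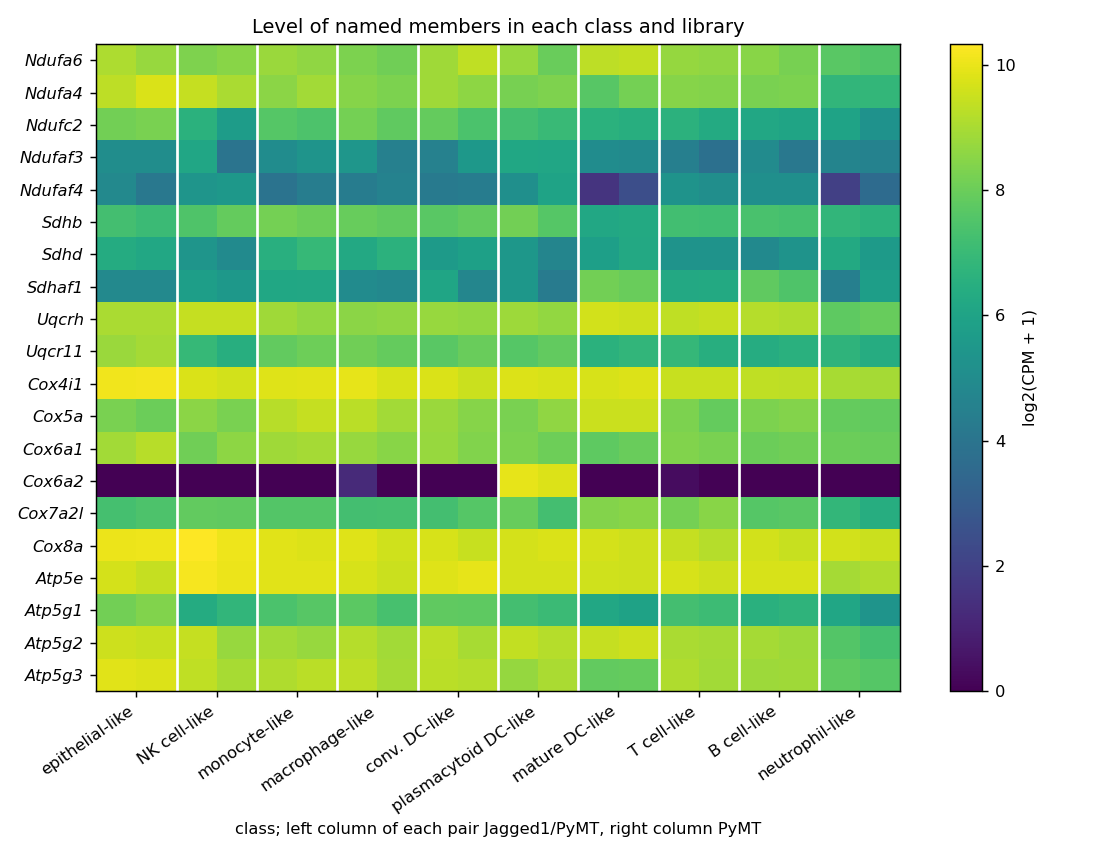
Level of 20 named members, log2(CPM + 1), in each class (DC stands for dendritic cell), with Jagged1/PyMT in the left column of each pair and PyMT in the right. Cox6a2 is high in plasmacytoid dendritic cell-like cells (997 and 872 CPM) and near 0 in the other classes, and Sdhaf1 is highest in mature dendritic cell-like and B cell-like cells.

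Several complex IV subunits come in pairs, one broad and one known from heart, skeletal muscle or other restricted tissues. Cox6a2, the heart and muscle partner of Cox6a1, marked 1 class. It had 229 UMIs or 997 CPM (872 to 1135) in 30 plasmacytoid dendritic cell-like cells of Jagged1/PyMT, and 139 UMIs or 872 CPM (733 to 1030) in 21 such cells of PyMT. A UMI was found in 76.7% and 90.5% of these cells at medians of 7524.5 and 7788 UMIs, and in 46.7% and 52.4% at an equal 1000 UMIs per cell. In macrophage-like cells it was found in 1.29% of cells of Jagged1/PyMT at a median of 9107.5 UMIs (1.32 CPM) and in 0 of 185 cells of PyMT, which allows a share of up to 1.62%. T cell-like cells had 3 UMIs and 1 UMI, and the other gated classes 0. Free RNA had 8.27 CPM in Jagged1/PyMT and 0 UMIs in PyMT (interval 0 to 3.26 CPM), far below the plasmacytoid class. The broad partner Cox6a1 was present in the same class at 309 and 264 CPM, summed over the class. Cox6a2 (chr7:128205435-128206387, minus strand) overlaps Itgad on the opposite strand. The class was gated on Siglech, Ccr9, Klk1 and Cd300c, while the marker Bst2 was left out of the gate. Beside Cox6a2, the 5 members higher in the class (22.3% of all genes) were Ndufs5, Ndufaf3, Ndufaf5 and Sdhaf3, and 2 were lower (8.84%).

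The other restricted isoforms were rare. Cox8b, the muscle partner of Cox8a, had 3 UMIs in Jagged1/PyMT and 9 in PyMT, all in epithelial-like cells. Cox7a1, the muscle partner of Cox7a2, had 18.1 and 24.1 CPM in epithelial-like cells, beside 486 and 484 CPM of Cox7a2, and 9.01 and 6.72 CPM in macrophage-like cells. Cox4i2, the partner of Cox4i1 known from lung and low oxygen, had 64 UMIs (3.12 CPM, 2.40 to 3.98) in macrophage-like cells of Jagged1/PyMT and 1 UMI (0.840 CPM, 0.0213 to 4.68) in those of PyMT, and these intervals overlap. Cox6b2, the testis partner of Cox6b1, had 9.45 and 10.1 CPM in macrophage-like cells, and in T cell-like cells 3.85 and 2.63 CPM, below its 5.84 and 8.84 CPM in free RNA. Ndufa4l2, a relative of Ndufa4 known from low oxygen, had 6 UMIs in Jagged1/PyMT and 1 in PyMT. Cox7b2 and Cox8c had none, which allows up to 0.0381% of Jagged1/PyMT cells and 0.0403% of PyMT cells with a UMI.

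The c-subunit of the ATP synthase ring is encoded by 3 genes whose mature proteins are the same. In most classes Atp5g3 and Atp5g2 shared the transcripts and Atp5g1 added the least. Jagged1/PyMT macrophage-like cells had shares of 15.1% for Atp5g1, 40.2% for Atp5g2 and 44.7% for Atp5g3, and PyMT ones 14.0%, 42.3% and 43.7% in the same order. Mature dendritic cell-like cells differed: Atp5g2 held 69.8% of 503 c-subunit UMIs in Jagged1/PyMT and 71.1% of 668 in PyMT. In the other classes its share lay between 34.6% and 53.7%. By level, Atp5g2 in mature dendritic cell-like cells, at 692 and 734 CPM, was near its 735 and 712 CPM in epithelial-like cells, while Atp5g3 had 227 and 238 CPM there, beside 929 and 889 CPM in epithelial-like cells.

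**Figure D3:**
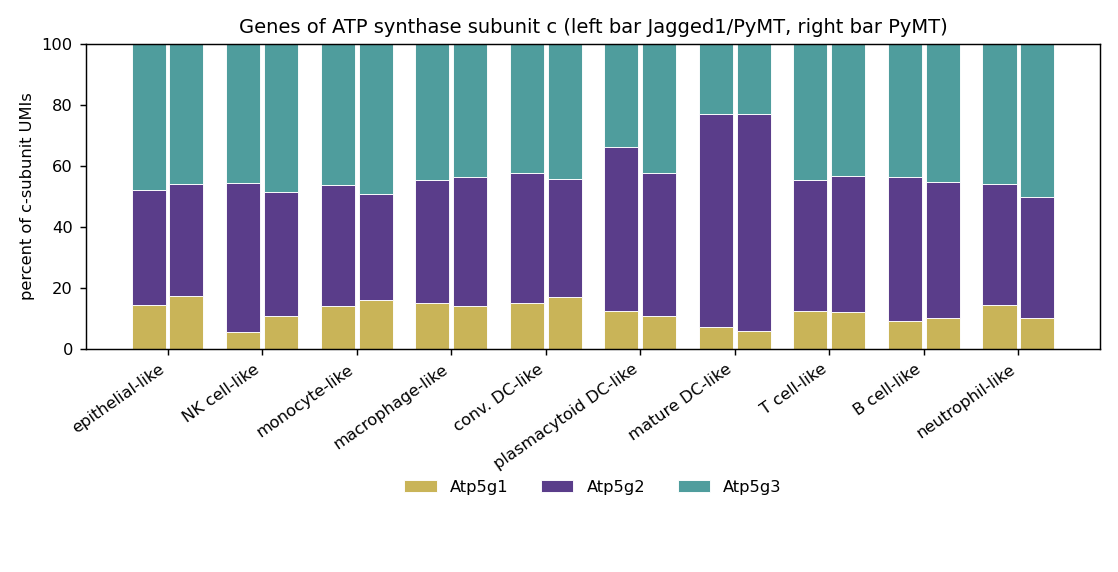
Share of c-subunit UMIs (percent) from Atp5g1, Atp5g2 and Atp5g3 in each class, Jagged1/PyMT left of PyMT. Atp5g2 makes up 69.8% and 71.1% in mature dendritic cell-like cells.

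The second comparison set Jagged1/PyMT against PyMT within a class. The summed level of the members was higher in Jagged1/PyMT in macrophage-like cells, at 21392 against 17978 CPM (1.19-fold, 1.17 to 1.21), and in T cell-like cells, at 18034 against 16243 CPM (1.11-fold, 1.10 to 1.12). In B cell-like cells, at 15622 against 15203 CPM, the ratio was 1.03 (1.02 to 1.04). NK cell-like cells had a ratio of 1.14 (1.07 to 1.21) from 17 and 37 cells, epithelial-like cells 1.03, monocyte-like cells 0.9995 (0.975 to 1.02) and mature dendritic cell-like cells 0.963 (0.937 to 0.989). Neutrophil-like cells had a ratio of 1.09 (1.05 to 1.13), whose direction depended on the cells compared: in bins of UMIs per cell it was 1.26, 1.45, 0.828, 1.75 and 0.750, from the shallowest to the deepest, the last 3 with 8 or fewer PyMT cells.

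In macrophage-like cells 78 of 88 members with at least 100 UMIs had a ratio above 1, with a median log2 ratio of 0.25 beside 0.04 over all genes. Here and below, the share of all genes above a ratio of 1 is not given, and only the all-gene median stands beside such counts. Of the members, 7 were over 1.5-fold higher and 0 lower, where 10.7% of all genes were higher and 8.56% lower, so the share past the fold was no larger than among genes in general. This count moved with the cells used, to 27 higher among cells of 4000 to 8000 UMIs (25 in PyMT) and 3 higher without cells that held a marker UMI of another lineage. The share of all genes past the fold is not given for those cells, so neither count has a background. With the fold lowered to 25% higher, and the same factor for lower, 32 members were higher and 1 lower, beside 24.0% and 19.9% of all genes. By complex, the summed ratio was 1.21 in complex I, 1.03 in complex II (0.947 to 1.11), 1.14 in complex III, 1.19 in complex IV and 1.20 in complex V.

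Of the 7 members past 1.5-fold, 5 belong to complex I, which holds 46 of the 97 members. Its summed ratio was close to those of complexes IV and V. Ndufab1, the mitochondrial acyl carrier protein and also a complex I subunit, had 3487 UMIs (169.8 CPM) in macrophage-like cells of Jagged1/PyMT and 132 UMIs (111 CPM) in those of PyMT, a log2 ratio of 0.61 (0.36 to 0.88). Ndufs6, a zinc-binding subunit, had 97.1 against 59.7 CPM, 0.70 (0.36 to 1.06). The assembly factor Ndufaf3 had 41.5 against 21.8 CPM, 0.92 (0.36 to 1.55). The other 4 are named for having passed the fold, after their values were seen: the subunit Ndufa9 had 49.3 against 31.9 CPM, Sdhaf4, an assembly factor of complex II, had 37.3 against 21.8 CPM, and for Ndufaf6 and Sdhaf3 PyMT held only 5 and 4 UMIs and the intervals included 0. At the other end Sdhd had 74.9 against 99.1 CPM, a log2 ratio of -0.41 (-0.68 to -0.12). Ndufaf2 (-0.26, -0.90 to 0.46) and Ndufaf4 (-0.23, -0.79 to 0.39) followed, both complex I assembly factors with intervals that included 0.

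Other measures of these macrophage-like cells differed too. The median was 9107.5 UMIs per cell in Jagged1/PyMT and 3292 in PyMT, and within bins of UMIs per cell the member ratio ran between 1.03 and 1.33. With cells that held any marker UMI of another lineage left out, the log2 ratio was 0.14 in place of 0.25. T cell markers summed to 169.8 CPM in macrophage-like cells of Jagged1/PyMT and 177 CPM in those of PyMT, with 0 of 6 genes at 0 in either. Cycling markers summed to 396 and 318 CPM, and among cells that were not cycling the ratio was 1.20, with 8 of 88 members over 1.5-fold higher (12.1% of all genes).

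In T cell-like cells 75 of 86 members were above a ratio of 1, with a median log2 ratio of 0.18 beside 0.01 over all genes. Of these, 2 were over 1.5-fold higher and 0 lower, where 7.36% of all genes were higher and 4.76% lower; both are assembly factors of complex I. At the lowered fold 18 were higher and 1 lower, beside 18.3% and 15.8% of all genes. Ndufaf7, a methyltransferase that acts on a complex I subunit, had 9.86 against 4.80 CPM (110 against 102 UMIs), a log2 ratio of 1.04 (0.64 to 1.44), and Ndufaf3 had 21.2 against 13.2 CPM, 0.68 (0.42 to 0.93). Ndufb3, an accessory subunit, followed with 97.5 against 70.4 CPM, 0.47 (0.36 to 0.58). Cox7a2l, the gene that set T cell-like cells apart from most classes, was lower in Jagged1/PyMT, with 284 against 359 CPM, a log2 ratio of -0.34 (-0.40 to -0.28). Ndufaf8 had 56.7 against 62.8 CPM, -0.15 (-0.28 to -0.01), and Uqcrh 639.8 against 678 CPM, -0.08 (-0.12 to -0.04).

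The T cell-like cells were also divided by coreceptor. In Cd8-type cells (a Cd8a or Cd8b1 UMI, none of Cd4) the member ratio was 1.17 (1.15 to 1.18), with 1 of 82 members over 1.5-fold higher (7.31% of all genes), and in Cd4-type cells (the reverse) it was 1.05 (1.04 to 1.06), with 1 of 81 (3.75%). Among T cell-like cells that were not cycling it was 1.08, with 2 of 86 over 1.5-fold higher (6.25%). Within bins of UMIs per cell it ran from 0.912 to 1.18. Macrophage markers summed to 128 CPM in T cell-like cells of Jagged1/PyMT and 26.6 CPM in those of PyMT, with 0 of 8 genes at 0, and monocyte markers to 235 and 126 CPM. With cells that held any marker UMI of another lineage left out, the member log2 ratio was 0.12 in place of 0.15.

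In B cell-like cells 49 of 82 members were above a ratio of 1, with a median log2 ratio of 0.07 beside -0.04 over all genes. The median was -0.0029 with cells thinned to 1000 UMIs and -0.0129 among cells of 4000 to 8000 UMIs, and within bins of UMIs per cell the summed ratio ran from 0.974 to 1.12. Of the members, 2 were over 1.5-fold higher and 0 lower, where 3.37% of all genes were higher and 4.58% lower; at the lowered fold 3 were higher and 3 lower, beside 11.1% and 17.1%. Among cells of 4000 to 8000 UMIs 0 were over 1.5-fold higher, with no share of all genes given for those cells. Sdhaf4 had 34.1 against 18.9 CPM, a log2 ratio of 0.85 (0.47 to 1.24), and Ndufaf3 had 30.3 against 16.7 CPM, 0.86 (0.45 to 1.28), so Ndufaf3 was past 1.5-fold in macrophage-like, T cell-like and B cell-like cells alike. Ndufa6 had 360.1 against 294 CPM, 0.29 (0.19 to 0.40). Lowest by the upper bound of the interval were Ndufaf8, with 52.2 against 72.9 CPM, -0.48 (-0.73 to -0.24), Sdhd, with 28.9 against 38.4 CPM, -0.41 (-0.75 to -0.08), and Atp5k, the e subunit of ATP synthase, with 162 against 190.0 CPM, -0.23 (-0.38 to -0.09). Macrophage markers summed to 73.7 CPM in B cell-like cells of Jagged1/PyMT and 13.9 CPM in those of PyMT, with 1 of 8 genes at 0 in each.

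Some of these gene-level differences were also present outside cells. In free RNA Ndufaf3 had 29.7 CPM in Jagged1/PyMT against 14.1 CPM in PyMT, a log2 ratio of 1.07 (0.26 to 1.96), and Sdhaf4 36.5 against 21.2 CPM, 0.78 (0.10 to 1.51). Cox7a2l had 180.1 against 289 CPM, -0.68 (-0.90 to -0.46). The part of free RNA in the cell values was not tested. In the smaller classes Ndufaf3 differed little, with 32.1 against 32.8 CPM in epithelial-like, 31.5 against 29.4 CPM in mature dendritic cell-like and 69.6 against 69.0 CPM in plasmacytoid dendritic cell-like cells, on 11 to 34 UMIs each.

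**Figure D4:**
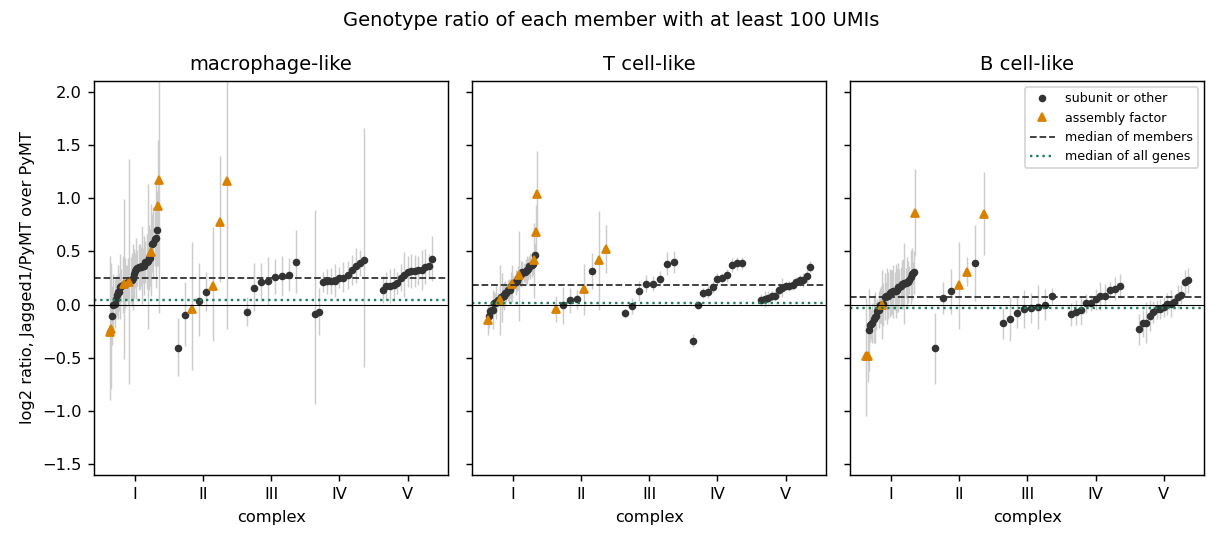
Log2 ratio of Jagged1/PyMT over PyMT for each member in macrophage-like, T cell-like and B cell-like cells, by complex, with 95% counting intervals (triangles are assembly factors; some bars run past the axis). The dashed line is the member median (0.25, 0.18 and 0.07) and the dotted line the median of all genes (0.04, 0.01 and -0.04).

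The mtDNA-encoded side of the chain ran opposite. Each of the 13 mtDNA-encoded subunit transcripts was lower in Jagged1/PyMT in macrophage-like, T cell-like and B cell-like cells, with median log2 ratios of -0.50, -0.38 and -0.23. Nuclear member UMIs per mtDNA-encoded UMI were 0.954 in macrophage-like cells of Jagged1/PyMT against 0.560 in those of PyMT, 0.734 against 0.504 in T cell-like cells and 0.495 against 0.402 in B cell-like cells. Mature dendritic cell-like cells differed least, at 1.02 against 1.01, and neutrophil-like cells had the highest balance in Jagged1/PyMT, 1.21 against 0.955. Over all called cells the median share of mitochondrial UMIs was 2.41% in Jagged1/PyMT and 3.27% in PyMT, and the part of cell handling in this was not tested.

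Other gene lists of the same cells give the members' ratio a setting. In macrophage-like cells the mitochondrial ribosome (Mrpl and Mrps genes) had 68 of 77 genes above a ratio of 1, with a median log2 ratio of 0.29, of which 11 were over 1.5-fold higher. The proteasome had 36 of 38 (0.28), the cytosolic ribosome 76 of 82 (0.23), mitochondrial import 17 of 23 (0.24), and assembly factors outside the symbol rule 26 of 34 (0.24). Glycolysis had 12 of 15 (0.53), with 6 over 1.5-fold higher, while the TCA cycle had 9 of 16 (0.05). Several housekeeping groups thus lay above the all-gene median of 0.04 together with the respiratory genes. In T cell-like cells the member median of 0.18 lay beside 0.11 for the mitochondrial ribosome (49 of 78), 0.13 for the TCA cycle (13 of 16), 0.19 for glycolysis (12 of 15) and 0.02 for the cytosolic ribosome (50 of 82). In B cell-like cells the member median of 0.07 lay beside -0.05 for the mitochondrial ribosome (33 of 70) and -0.10 for the proteasome (9 of 38).

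The third comparison looked at cell state within a class. T cell-like cells with at least 3 UMIs of 10 cycling genes, such as Mki67 and Top2a, had a summed member level of 30417 CPM in Jagged1/PyMT (41 cells), against 17195 CPM in the 2502 that were not cycling, a ratio of 1.77 (1.74 to 1.79). In PyMT the values were 27747 CPM (35 cells) against 15848 CPM (4878 cells), 1.75 (1.73 to 1.78). Over 1.5-fold higher were 63 of 84 members in Jagged1/PyMT (33.9% of all genes) and 61 of 85 in PyMT (35.6%), and 0 and 1 were over 1.5-fold lower (15.5% and 19.0%). The median member log2 ratio was 0.87 and 0.89 beside 0.27 and 0.24 over all genes. Each complex had members past the fold: in Jagged1/PyMT 32 of 43 members of complex I, 3 of 7 of complex II, 5 of 8 of complex III, 9 of 11 of complex IV and 14 of 15 of complex V were over 1.5-fold higher.

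The leading genes of the complexes differed in this step. Cox8a had 1289.6 CPM in cycling and 643 CPM in other T cell-like cells of Jagged1/PyMT, and 1065 against 558 CPM in PyMT, log2 ratios of 1.0 and 0.93. Atp5g3 had 1316 against 489 CPM and 1276 against 452 CPM, 1.43 and 1.5, and its fellow c-subunit gene Atp5g2 880.0 against 497 CPM and 1003 against 477 CPM, 0.82 and 1.07. Uqcrh was lower in cycling cells, with 523 against 648 CPM and 501 against 684 CPM, -0.31 and -0.45, and Ndufa6 was not higher, with 377 against 414 CPM and 329 against 395 CPM. The genes that were lowest in T cell-like cells as a whole were among the most different here: Cox5a had 802 against 277 CPM and 698 against 222 CPM, 1.53 and 1.65, and Uqcr11 297 against 105 CPM and 312 against 81.1 CPM, 1.5 and 1.94. Cox7a2l, the gene highest in T cell-like cells relative to other classes, had 198 against 289.7 CPM and 187.0 against 365 CPM, -0.55 (-0.81 to -0.31) and -0.97 (-1.23 to -0.72).

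Cycling cells were deeper, with a median of 16305 UMIs against 3784.5 in Jagged1/PyMT and 17456 against 3896.5 in PyMT, and a deep cell passes a threshold of 3 UMIs more easily. Among cells of 8000 to 16000 UMIs the ratio was 1.27 in each library (14 against 109 cells, and 14 against 195 cells), and over all depths, with ribosomal-protein and mitochondrial UMIs left out of the total, it was 1.44 and 1.47. With those UMIs left out among cells of 8000 to 16000 UMIs, it was 1.15 in Jagged1/PyMT and 1.11 in PyMT. The ribosomal share was 26.4% in cycling against 39.1% in other T cell-like cells of Jagged1/PyMT, and 28.7% against 39.1% in PyMT. Beside the members, the mitochondrial ribosome had 54 of 72 and 61 of 77 genes over 1.5-fold higher, the proteasome 31 of 38 and 32 of 38, and glycolysis 10 of 14 and 12 of 14. The mtDNA-encoded subunits stood apart, with 1 of 13 above a ratio of 1 in each library and medians of -0.44 and -0.37. So did the cytosolic ribosome: of its 82 genes, 27 were over 1.5-fold lower and 5 higher in Jagged1/PyMT, and 21 lower and 6 higher in PyMT.

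Cycling macrophage-like cells also had a higher summed level than the others. They had 24295 CPM in Jagged1/PyMT (321 cells), against 20482 CPM in the others (1695 cells), a ratio of 1.19, and 21776 CPM in PyMT (14 cells), against 17092 CPM (171 cells), 1.27. Among cells of 8000 to 16000 UMIs in Jagged1/PyMT the ratio was 1.20, and 1.22 with ribosomal-protein and mitochondrial UMIs left out, beside 1.27 and 1.15 in T cell-like cells of that library and depth, so the order of the 2 classes depended on the scale. Over 1.5-fold higher were 2 of 88 members in Jagged1/PyMT (9.68% of all genes) and 5 of 64 in PyMT (11.5%). Cox7a2l and Uqcrh were again below a ratio of 1, with log2 ratios of -0.19 and -0.15 in Jagged1/PyMT and -0.06 and -0.08 in PyMT, where the intervals included 0.

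T cell-like cells with more UMIs of effector genes, such as Nkg7, Ccl5 and Gzmb, than of naive genes, such as Ccr7 and Lef1, also had more. Effector-type cells had 24967 CPM in Jagged1/PyMT (181 cells), against 16853 CPM in naive-type cells (2333 cells), a ratio of 1.48 (1.47 to 1.5), and 20853 CPM in PyMT (217 cells), against 15881 CPM (4639 cells), 1.31 (1.3 to 1.33). Over 1.5-fold higher were 45 of 84 members (26.6% of all genes) and 18 of 85 (22.1%). Cox8a had 1190.4 against 601 CPM and 962 against 544 CPM, and Atp5e 1225 against 773 CPM and 985 against 724 CPM, while Uqcrh had 627 against 644 CPM and 686 against 678 CPM. Without cells that held a cycling UMI the ratio was 1.36 and 1.29. With cycling cells kept, it was 1.40 and 1.24 among cells of 8000 to 16000 UMIs, 1.21 and 1.27 at 4000 to 8000 UMIs and 1.16 and 1.06 at 2000 to 4000 UMIs. From 16000 UMIs up it was 1.08 in Jagged1/PyMT. In these same cells, with ribosomal-protein and mitochondrial UMIs left out of the total, it was 1.31 and 1.15 at 8000 to 16000 UMIs and 1.13 and 1.15 at 4000 to 8000 UMIs. It was 0.980 and 0.908 at 2000 to 4000 UMIs, and 1.05 from 16000 UMIs up in Jagged1/PyMT.

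Cells with a UMI of Foxp3, the regulator that defines regulatory T cells, had 25862 CPM in Jagged1/PyMT (43 cells), against 16598 CPM in Cd4-type cells (689 cells), a ratio of 1.56, and 22414 CPM in PyMT (96 cells), against 15805 CPM (1424 cells), 1.42. Over 1.5-fold higher were 48 of 76 members (26.8% of all genes) and 35 of 80 (28.7%). Sdhaf1 was one of them, with 198 against 92.2 CPM and 165 against 81.6 CPM, log2 ratios of 1.10 (0.69 to 1.5) and 1.02 (0.70 to 1.32); in effector-type against naive-type cells it was lower, at 55.1 against 77.3 CPM and 60.8 against 77.3 CPM. The summed Foxp3 difference depended on which cells were compared: the log2 ratio of 0.64 and 0.50 was 0.29 and 0.32 without cells that held a cycling UMI, and 0.12 and 0.25 among cells of 4000 to 8000 UMIs. With ribosomal-protein and mitochondrial UMIs also left out at that depth the ratio was 0.955 in Jagged1/PyMT and 1.03 in PyMT. In PyMT at 8000 to 16000 UMIs (15 against 37 cells) the ratio was 1.26, and 1.20 with those UMIs left out. At 2000 to 4000 UMIs the ratios were 1.09 in Jagged1/PyMT and 1.10 in PyMT, and 0.975 and 0.942 with those UMIs left out. Cd8-type over Cd4-type cells gave ratios of 1.15 and 1.03, with 1 of 81 members (7.14% of all genes) and 0 of 82 (4.63%) over 1.5-fold higher.

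**Figure D5:**
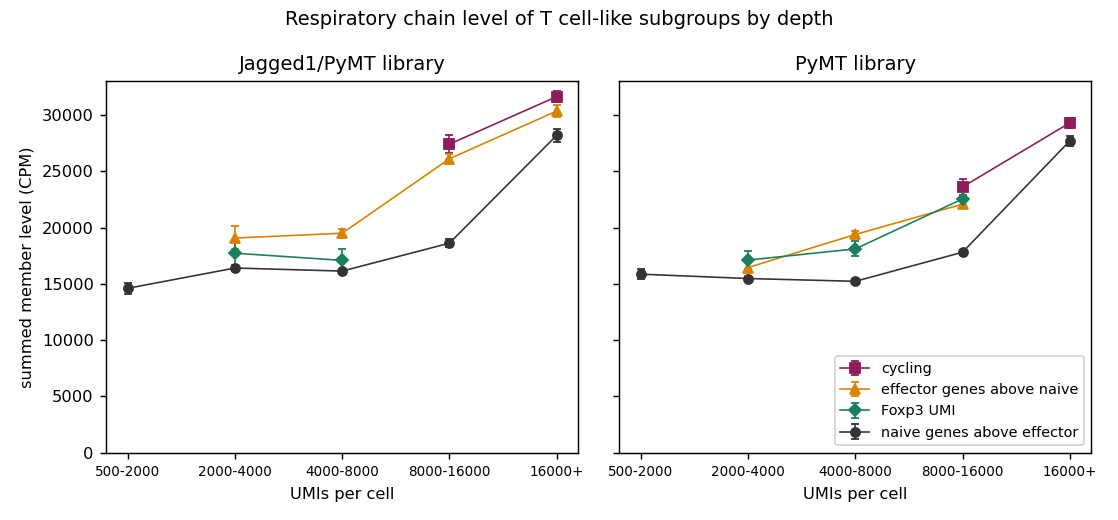
Summed member level (CPM) of T cell-like subgroups by bins of UMIs per cell, Jagged1/PyMT in the left panel and PyMT in the right, for bins with at least 10 cells, with 95% Poisson intervals. At 8000 to 16000 UMIs cycling cells (27420 and 23617 CPM) lie above naive-type cells (18619 and 17817 CPM), and naive-type cells themselves are highest in the deepest bin (28196 and 27711 CPM).

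In B cell-like cells a UMI of Myc, a known driver of mitochondrial gene expression, came with no such step. Cells with it had 15501 CPM in Jagged1/PyMT, against 15806 CPM in those without, a ratio of 0.981 (0.966 to 0.996), and 15193 CPM in PyMT, against 15209 CPM, 0.999 (0.984 to 1.01).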

How the data were processed

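The deposited matrices hold UMI counts per gene and barcode, with no normalization; the authors made them with Cell Ranger 3.0.2, per the submitters' processing notes, while no source used here names the genome build or annotation. A barcode was kept as a cell from 500 UMIs and 250 genes up, if no more than 10% of its UMIs were mitochondrial. The T cell, B cell, macrophage, neutrophil, epithelial, mature and plasmacytoid dendritic classes (main lineages) needed at least 3 UMIs of their own markers. They held at most 2 UMIs of another main lineage's, or 10% of their own if that was more. Monocyte, conventional dendritic and NK labels, set afterwards, needed 3 own UMIs and at most 2 of any main lineage other than macrophage. NK labels allowed at most 2 macrophage UMIs, monocyte and conventional dendritic labels any number below their own. Settings without other lineages checked main-lineage markers only. No doublet caller was run; barcodes with markers of 2 lineages were left out as mixed (1321 in Jagged1/PyMT, 474 in PyMT), and doublets of 1 type stay in. Counts were summed over the cells of a class and library and given as CPM with 95% exact intervals, in Python 3.11.15 with numpy 2.4.6, scipy 1.17.1 and pandas 2.3.3. Genes entered a count of those past 1.5-fold with at least 100 UMIs over both groups, and a gene at 0 was set at 3 counts. Since each genotype was 1 library, no test was run and no count model was fitted, and the calculations were checked on simulated counts.

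Genes named in the text are the 3 with most UMIs in each complex, isoforms of restricted tissues and their partners, the c-subunit genes, and the 3 highest and 3 lowest in each class compared, by the interval bound nearest 0; others are said to be chosen after their values were seen, or belong to a count of 5 or fewer. The members and lists were chosen with earlier results of these data known. Cox5a, Uqcr11, Cox7a2l and Sdhaf1 in the T cell subgroups, and the free RNA values, were picked after their values were seen. So were Sdhc in macrophage-like cells and Atp5a1 in mature dendritic cell-like cells. Alternatives were other denominators, cells thinned to 1000 UMIs, stricter cell filters, other folds and minimum counts.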

Additional observations from a re-analysis of the deposited data

Results flagged for a closer look

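A few members had a log2 ratio of Jagged1/PyMT over PyMT with opposite signs in 2 classes, each with an interval that left out 0; the difference between classes was not tested. Ndufaf8, a complex I assembly factor, stood at 0.49 in macrophage-like cells, against -0.15 for T cell-like and -0.48 for B cell-like ones. Atp5k stood at 0.32 in macrophage-like and -0.23 in B cell-like cells. Uqcr10, a small subunit of complex III, stood at 0.27 in macrophage-like and 0.24 in T cell-like cells, against -0.18 in B cell-like cells. Atp5j, coupling factor 6 of ATP synthase, stood at 0.17 in macrophage-like and 0.13 in T cell-like cells, against -0.18 in B cell-like cells. Uqcrh stood at -0.0836 among T cell-like and 0.0793 among B cell-like cells. With 1 library per genotype these signs describe 2 libraries.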

How the results depend on the processing

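No paired analysis was possible because the matrices pool the samples of a genotype, and for the same reason none could be left out. Of the recomputed values 127 stayed close to the reported ones (within the counting interval, within 0.1 for a median log2 ratio, or within 1.5 times for a count), 99 moved and 6 reversed; the cause was not tested. Values below are log2 ratios unless called counts, and the setting of 4000 to 8000 UMIs per cell was chosen after seeing the data. For Jagged1/PyMT over PyMT, macrophage-like cells (0.25) gave 0.27 without mitochondrial and ribosomal-protein UMIs, 0.14 as a mean over cells, 0.20 thinned to 1000 UMIs, 0.14 without any UMI of another lineage and 0.41 at 4000 to 8000 UMIs. In the same order T cell-like cells (0.15) gave 0.12, 0.0879, 0.10, 0.12 and 0.0856. B cell-like cells (0.04) gave 0.0207 as a mean over cells, 0.0152 without other lineages and 0.0071 at 4000 to 8000 UMIs, and neutrophil-like cells (0.12) gave 0.35 as a mean over cells, 0.43 thinned, 0.0647 without other lineages and, reversed, -0.27 at 4000 to 8000 UMIs. The B cell-like member median (0.07) reversed to -0.0029 thinned and -0.0129 at 4000 to 8000 UMIs.

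Counts past the fold in macrophage-like cells were 7 higher, but 3 without other lineages, 32 at a fold of 25% higher and 27 at 4000 to 8000 UMIs, and 0 lower, but 1 as a mean over cells, at a minimum of 20 UMIs and at that lower fold. In T cell-like cells 2 were higher, but 1 as a mean over cells, thinned or at a minimum of 500 UMIs, 18 at the lower fold and 0 at 4000 to 8000 UMIs, and 0 lower, but 1 at a minimum of 20 UMIs or the lower fold. In B cell-like cells 2 were higher, but 1 thinned and 0 at a minimum of 500 UMIs or at 4000 to 8000 UMIs, and 0 lower, but 1 as a mean over cells and 3 at the lower fold. Apart from the lower fold, the share of all genes is not given for these other settings, so their counts have no background.

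Macrophage-like over T cell-like cells in Jagged1/PyMT (0.25) reversed to -0.20 without mitochondrial and ribosomal-protein UMIs and gave 0.39 as a mean over cells, 0.37 thinned and 0.32 without other lineages; in PyMT (0.15) it reversed to -0.35 and, at 4000 to 8000 UMIs, to -0.0841, and gave 0.34, 0.27 and 0.30. In the order of denominator, mean over cells, thinned, no other lineage and 4000 to 8000 UMIs, B cell-like over T cell-like cells gave -0.42, -0.14, -0.14, -0.17 and -0.0873 in Jagged1/PyMT (-0.21), and -0.34, -0.0685, -0.0579, -0.0665 and -0.0087 in PyMT (-0.10). Epithelial-like over T cell-like cells gave 0.24, 0.67, 0.58, 0.71 and 0.77 in Jagged1/PyMT (0.53) and 0.28, 0.79, 0.74, 0.75 and 0.69 in PyMT (0.65), and with at most 5% mitochondrial UMIs 0.48 and 0.58. The epithelial-like cells were few, 20 and 51 without other lineages and 9 and 17 at 4000 to 8000 UMIs. Neutrophil-like over T cell-like cells gave -1.26 with the other denominator in each library, -0.70 at 4000 to 8000 UMIs in Jagged1/PyMT (-0.63), and -0.92 as a mean over cells, -0.97 thinned and -0.34 at 4000 to 8000 UMIs in PyMT (-0.60). The value of -0.34 rests on 8 neutrophil-like cells.

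Cycling over other T cell-like cells gave 0.53 with the other denominator, 0.89 without other lineages and 0.60 at 4000 to 8000 UMIs in Jagged1/PyMT (0.82), and 0.55, 0.84 and 0.13 in PyMT (0.81); at 4000 to 8000 UMIs these are values of 2 cycling cells and 1 cycling cell, too few to read. In PyMT it was 0.71 as a mean over cells, 0.69 thinned and 0.83 with at least 5 cycling UMIs. Cycling over other macrophage-like cells gave 0.26 with the other denominator, 0.21 as a mean over cells, 0.32 without other lineages and 0.36 at 4000 to 8000 UMIs in Jagged1/PyMT (0.25), and 0.26 as a mean over cells and 0.44 without other lineages in PyMT (0.35). The nuclear to mtDNA-encoded balance for Jagged1/PyMT over PyMT kept its direction: macrophage-like cells (0.77) gave 0.59 as a mean over cells, 0.71 thinned, 0.66 with at most 5% mitochondrial UMIs, 0.58 without other lineages and 0.95 at 4000 to 8000 UMIs. T cell-like cells (0.54) gave 0.43, 0.47 thinned, 0.49 without other lineages and 0.47 at 4000 to 8000 UMIs, and B cell-like cells (0.30) gave 0.26, 0.28 thinned, 0.27 with at most 5% mitochondrial UMIs and 0.27 without other lineages. At this depth genes under 100 UMIs could not be ranked.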
